A study of Mus musculus with 10 samples.

Results

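KLF3, a Krüppel-like factor that recruits corepressors, and KLF1, the erythroid activator of the same family, were mapped by chromatin immunoprecipitation in mouse erythroid cells. The sites described here are those of KLF3 that lie away from genes and at which no KLF1 peak was listed. They were selected on the authors' deposited peak lists: a KLF3 peak whose annotation was distal or intergenic and whose interval shared no base pair with any KLF1 interval. This held for 232 of 4579 KLF3 peaks (5.07%, 95% exact interval 4.45 to 5.74%), in a series of 8379 listed peaks of both factors. Of the 232, 215 were annotated distal and 17 intergenic. They occupied 226 different intervals, since 6 intervals were listed with 2 summits each.

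KLF3 was precipitated from J2E-KLF3-ER clone C, which carries KLF3 fused to an estrogen receptor (ER) domain, with an antibody to the estrogen receptor. The parental J2E line, with no transgene, comes from immortalised erythroid cells of fetal liver. KLF1 was precipitated with a KLF1 antibody from clones A and C of K1-ER, erythroblasts that lack Klf1 and carry a KLF1-ER fusion. Both lines received tamoxifen for 3 hours before fixation, each immunoprecipitate was a pool of 3 replicates, and each had its own input DNA. Newly made RNA, labelled with 4-thiouridine (4sU) for 30 minutes, was sequenced from 3 J2E libraries, of which the first and second received tamoxifen and the third ethanol vehicle, and from tamoxifen-treated J2E-KLF3-ER clones A, C and E, 1 library each. No J2E-KLF3-ER RNA without tamoxifen is used here, so the presence of the transgene, the choice of clone and the activation of the fusion cannot be told apart. Factor and cell line changed together between the peak lists, so a KLF3 peak without a KLF1 peak cannot be told apart from a peak of J2E cells without a counterpart in K1-ER cells. With 1 pooled immunoprecipitate per factor, binding has no replicate and was not tested.

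Krüppel-like factors bind GC-rich CACCC-type sequences through 3 zinc fingers at the carboxyl end, which are highly alike across the family. KLF1 switches on globin, heme synthesis and membrane genes, and it also activates Klf3. KLF3 attracts C-terminal binding protein (CtBP) and acts mainly as a repressor. Distal regulatory elements, unlike promoters, may act over long distances and need not control the nearest gene, so the nearest gene below is a neighbour and not a shown target.

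No genome of the files' build (mm9) was at hand, so the bases of the sites themselves are not printed. Promoters of their nearest genes were read from RefSeq (GRCm38.p6, 250 bases before to 50 after each start) and searched on both strands for CCNCNCCC, the core bound by KLF and SP factors. The 5 stretches below, each of 30 bases in the direction of the gene, belong to genes whose RNA changed and which also had a KLF3 promoter peak. Each holds the match nearest to the start site, in capitals, read as its reverse complement in all but Lmna.
Ccnl1, chr3:65958275-65958304, minus strand: ggagtggagtgGGGTGGGGtagggcgtgtc
Gata2, chr6:88198577-88198606, plus strand: gcagccaatggGGGGGCGGaggctgggcgg
Lmna, chr3:88503343-88503372, minus strand: gagcagtggatCCACCCCCtgtagaggagg
Ptma, chr1:86526378-86526407, plus strand: gtcgcgagggaGGGGGAGGaccggggctgg
Sox12, chr2:152398083-152398112, minus strand: agacggcgaggGGGAGGGGagcgagcgcgc
The match began 9 bases before the start site in Lmna, 44 in Ccnl1, 55 in Sox12, 76 in Gata2 and 168 in Ptma. A match is a string of letters and not a shown binding site, and the 2 builds were not aligned, so no match was placed under a peak. The microRNA gene Mir142 was one of the 2 genes with the most distal KLF3-only sites. Its mature products in RefSeq (GRCm38.p6, chr11, plus strand) have these sequences, with the seed at bases 2 to 8 in capitals.
mmu-miR-142a-5p: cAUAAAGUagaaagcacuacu
mmu-miR-142a-3p: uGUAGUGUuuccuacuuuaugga

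The KLF and SP core was present in 130 of 193 promoters (67.4%, 95% exact interval 60.3 to 73.9%) of the 150 nearest genes that had a RefSeq promoter, of 209 nearest genes in all. Over all 32851 promoters of the table the share was 49.5%. Promoters of genes nearest to distal KLF3 sites with a KLF1 peak held it in 69.7% (62.3 to 76.3%), so the interval of this share overlapped that of the KLF3-only sites. The stricter CCACNCCC, whose matches are all also matches of the core, was found in 23.3% (17.5 to 29.9%) against 17.6% of all promoters. CCGGAAG, recognised by ETS factors, was found in 15.5% (10.7 to 21.4%) against 8.86%, and TGANTCA, the AP-1 site, in 3.63% (1.47 to 7.33%) against 7.81%. GATAA, the GATA factor site, was in 21.8% against 25.4%, TGTGGT, recognised by RUNX factors, in 12.4% against 16.8%, and CCAAT, the NF-Y site, in 37.3% against 37.4%. An E-box (CANNTG) followed by GATA was in 3.11% against 3.67%. Promoters of 1 gene were counted separately in these shares, so the intervals may be too narrow. The promoter sets were not matched for expression. The authors tested 67.0% of the 209 nearest genes for a change in RNA, against 41.3% of all genes. Among the 7 called genes with a promoter in the table, 8 of 9 promoters held the KLF and SP core. The interval of that share, 51.8 to 99.7%, contains the 67.4% of all neighbours.

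Of the 5 annotation classes of KLF3 peaks, the distal one had the lowest share without a KLF1 peak, with an interval that overlapped those of intron peaks and of peaks in untranslated regions. Of 439 distal and intergenic KLF3 peaks, 232 had no KLF1 peak (52.8%, 48.1 to 57.6%). The share was 59.4% (56.0 to 62.8%) of 838 intron peaks, 64.7% (57.1 to 71.8%) of 173 peaks in untranslated regions, 69.3% of 3043 promoter peaks and 79.1% of 86 peaks in coding sequence. Over the whole KLF3 list it was 66.0%. These shares restate the rule, and with 1 list per factor no test of the difference was made.

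The sites were of moderate height. Enrichment, the authors' ratio of immunoprecipitate over background at each peak, ran from 3.65 to 17.1 among the 232 sites, with a median of 7.18 (95% interval 6.77 to 7.45). Distal KLF3 peaks that shared bases with a KLF1 peak had a median of 8.11 and reached 35.5. KLF3 peaks without KLF1 had a median of 7.89 at promoters and 6.71 in introns, and the whole list 7.94. The enrichment comes from the same immunoprecipitation as the rule, so it is given as a description.

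**Figure D1:**
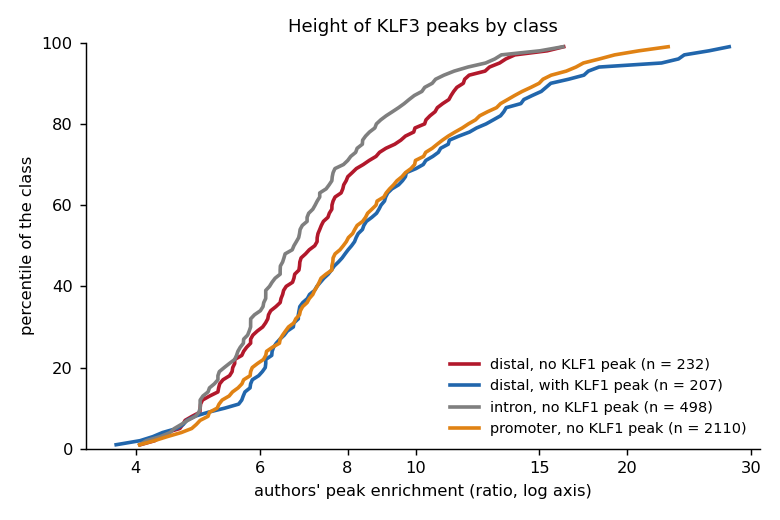
Authors' peak enrichment (ratio, logarithmic x axis) against percentile within 4 classes of KLF3 peaks, each line running from percentile 1 to percentile 99. The line of the 232 distal sites without a KLF1 peak crosses the middle at 7.18, between intron peaks without KLF1 (6.71) and promoter peaks without KLF1 (7.89), and its upper end stays below that of distal peaks with a KLF1 peak (median 8.11).

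Few of the sites were among the tallest KLF3 peaks. Only 19 of the 232 sites (8.19%) ranked among the first 1000 KLF3 peaks, and the best rank was 364. The distal peaks with KLF1 placed 46 of 207 (22.2%) there, the promoter peaks without KLF1 19.9% and the intron peaks without KLF1 5.82%. At or above the median enrichment of the list stood 81 of the 232 sites (34.9%) and 108 of the 207 distal peaks with KLF1 (52.2%). The sites were also narrow, with a median width of 239 bp against 268 bp for distal peaks with KLF1 and 238 bp for intron peaks without KLF1. The smallest width in the list, 176 bp, was held by 23 sites (9.91%), by 4.35% of distal peaks with KLF1, by 7.03% of intron peaks without KLF1 and by 3.80% of all KLF3 peaks.

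The tallest site, at an enrichment of 17.1, lay 5.30 kb downstream of the start of Scgb1a1, which encodes a secreted airway protein and was listed at 0 FPKM in both groups of the authors' deposited table. The next was 38.4 kb upstream of Mdm1, at 16.5. Lmna, the gene of the nuclear lamins A and C, had a site of 16.3, and the histone gene Hist1h2bj one of 16.2. The site near 1700067K01Rik reached 15.5, and its RNA had 5.22 FPKM in J2E and 0.743 FPKM with KLF3-ER by the authors' deposited table without passing their test (q = 0.104). The remaining sites among the 12 tallest lay near Ankrd13b (15.3), Gm5766 (14.1), Mir30d (13.8), Cmtm6 (13.8), Mtfp1 (13.4), Stk30 (13.4) and Arid2 (13.4), a subunit gene of a SWI/SNF chromatin remodelling complex. At the bottom were sites near Nr3c1 (4.05), Tdpoz3 (3.94) and Trappc6b (3.65).

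Most sites lay upstream of their nearest start site and within 50 kb of it. The median distance from summit to nearest start site was 9755 bp (95% interval 7735 to 14604 bp), and the median for distal peaks with KLF1 was 11103 bp. In 38 sites (16.4%) the distance was under 2 kb, in 80 (34.5%) it was 2 to 10 kb, in 85 (36.6%) 10 to 50 kb, in 18 (7.76%) 50 to 100 kb and in 11 (4.74%) over 100 kb. The farthest were 419 kb from Nova1, a gene of a neuronal RNA-binding protein, 309 kb from Pcmtd1 and 217 kb from Arid1b, a gene of a SWI/SNF subunit. The nearest were 116 bp from Mir132, 687 bp from Mir5133 and 1021 bp from 1190002F15Rik, so a few sites called distal sat close to a small RNA gene. The summit lay upstream in 167 of 232 sites (72.0%, 65.7 to 77.7%) and in 69.1% of distal peaks with KLF1. The rule leaves out peaks inside genes, so both the distance and the side are tied to it and are given as a description. The label distal was compared with the gene intervals of the RNA table, and 0 of 232 summits fell inside one. The label already places a peak outside genes, so this is no independent check.

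**Figure D2:**
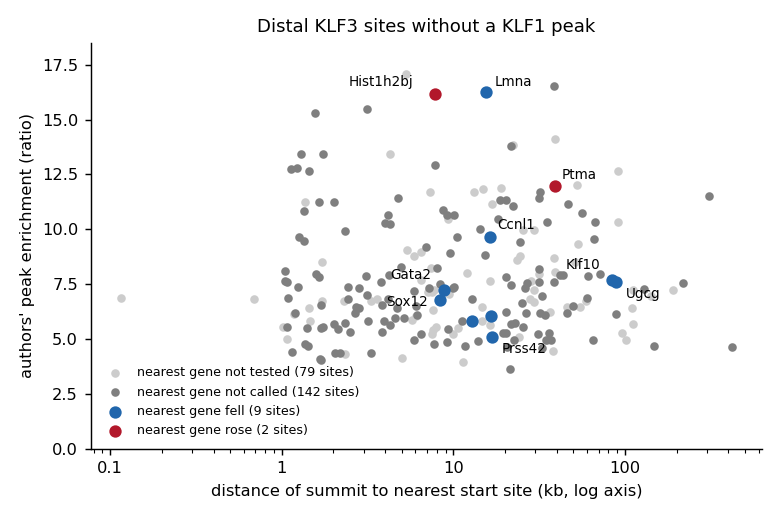
Each point is 1 of the 232 distal KLF3 sites without a KLF1 peak, with its distance to the nearest start site (kb, logarithmic x axis) and the authors' enrichment (ratio, y axis). Colours mark whether the nearest gene's RNA fell (9 sites of 8 genes), rose (2 sites), was not called (142 sites) or was not tested by the authors (79 sites), and 1 falling gene has no name beside its point. Sites next to changed genes lie from 7.84 kb (Hist1h2bj) to 89.0 kb (Ugcg) from the start and cover enrichments from 5.09 (Prss42) to 16.3 (Lmna).

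At most sites the nearest KLF1 peak was more than 10 kb away. The median gap from a site to the nearest KLF1 interval was 56993 bp (95% interval 37641 to 84186 bp). A KLF1 peak lay within 1 kb of 13 sites (5.60%), within 10 kb of 50 (21.6%) and within 100 kb of 137 (59.1%), and 25 sites (10.8%) had none within 1 Mb. Promoter KLF3 peaks without KLF1 had a larger median gap, 91575 bp, and intron peaks without KLF1 one of 68972.5 bp. Just inside the rule, sites stood 151 bp (Lyl1), 186 bp (Tenc1) and 222 bp (Gse1) from a KLF1 peak. Just outside it, distal KLF3 peaks overlapped a KLF1 peak by 67 bp (Pim1), 120 bp (Dhrs3) and 154 bp (Ptgs1).

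**Figure D3:**
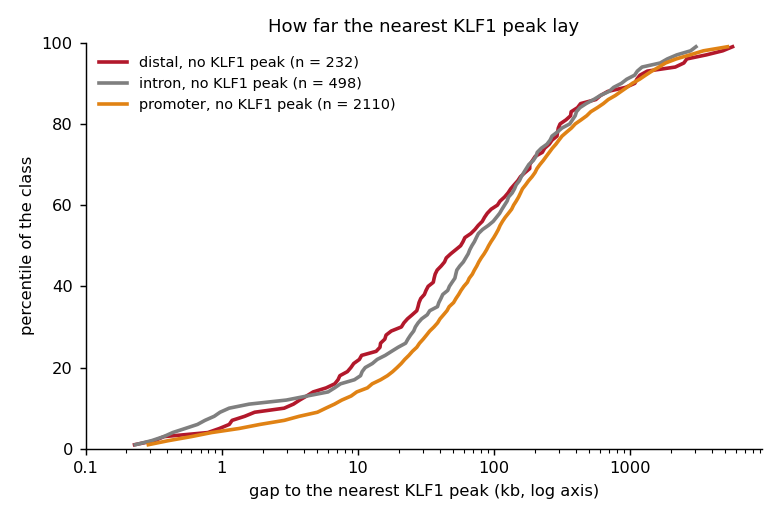
Gap from a KLF3 peak to the nearest KLF1 interval (kb, logarithmic x axis) against percentile within 3 classes of KLF3 peaks without KLF1, each line running from percentile 1 to percentile 99. The distal line crosses the middle at 56993 bp, to the left of the intron line (68972.5 bp) and the promoter line (91575 bp).

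The sites were mostly single. Chained at up to 50 kb, 42 of the 226 intervals fell into 19 clusters, and only 4 clusters held 3 sites. At Mir142, the gene of a microRNA abundant in blood cells, 3 sites lay 1.35, 7.21 and 7.97 kb upstream with enrichments of 9.47, 7.34 and 8.22. The start of Mir142 itself had a KLF3 promoter peak (6.79) that overlapped a KLF1 peak (10.6), so KLF1 was listed at the start and not at the 3 upstream sites. The Mir142 row had 226 FPKM in J2E and 627 FPKM with KLF3-ER by the authors' deposited table and did not pass their test (q = 0.749). At Nr3c1, which encodes the glucocorticoid receptor, 3 sites of low enrichment (4.05, 5.82 and 6.84) lay within 2.69 kb, and the nearest KLF1 peak was over 1.12 Mb away. Nr3c1 had 15.2 FPKM in J2E and 13.6 FPKM with KLF3-ER by the authors' deposited table (q = 0.702). At Slc2a3, a glucose transporter gene, and its neighbour Foxj2, 3 sites of 10.9 to 11.4 lay within 46.9 kb; these genes were singled out after their values were seen. The fourth cluster lay at Rab7 and Rpn1, next to Gata2, and is described below.

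Chromosome 11 held the most sites, 32 (13.8% of the sites against 10.2% of all KLF3 peaks). Chromosome 6 held 23 (9.91% against 4.52%). Chromosomes 15 and 5 held 17 each (7.33%, against 4.30% on chromosome 15 and 6.90% on chromosome 5). Chromosome 7 held 7 (3.02% against 7.56%).

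A KLF3 promoter peak lay within 10 kb of 34 sites (14.7%) and within 50 kb of 81 (34.9%), and a distal KLF3 peak with KLF1 lay within 50 kb of 26 (11.2%). By the authors' assignment, the 232 sites had 209 nearest genes, 188 with 1 site, 19 with 2 and 2 with 3. Of these 209 genes, 42 also had a KLF3 promoter peak (20.1%), 66 had some other KLF3 peak (31.6%), 68 had a KLF1 peak (32.5%) and 117 (56.0%) had no other peak of either factor. MicroRNA genes, 13 of them, were nearest to 17 sites.

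Most neighbouring genes did not pass the authors' RNA test, and 8 of the 10 that passed were lower in J2E-KLF3-ER (written below as with KLF3-ER). Over all tested genes, 183 of the 262 that passed were lower. All 209 nearest genes had a row in the authors' deposited table, and 140 had been tested there. FPKM counts sequenced fragments per length of transcript and per library total, and the table gives 1 pooled value per group of 3 libraries. In such bulk RNA, fewer cells of a type and less RNA per cell cannot be told apart. A gene is called changed here where the authors' q-value was below 0.05, which over all 9619 tested genes held for 2.72%, with 1.90% falling and 0.821% rising. Among the 140 genes, 8 fell and 2 rose (10 called, 7.14%, 95% exact interval 3.48 to 12.7%), and 130 were not called. The falling share was 5.71% and the rising share 1.43%. Both shares describe the neighbours of chosen sites and were not tested.

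Genes nearest to distal KLF3 peaks with KLF1 gave 12 falling and 2 rising of 121 tested (11.6%, 6.47 to 18.7%). Genes nearest to promoter KLF3 peaks without KLF1 gave 30 falling and 10 rising of 1759 (2.27%), and those nearest to intron peaks without KLF1 11 falling and 1 rising of 392 (3.06%). The median log2 fold change of the 140 genes was -0.03 (95% interval -0.08 to 0.01) in the authors' deposited table, that of all tested genes 0.03 and that of genes nearest to distal peaks with KLF1 -0.11. Below 0 were 79 of the 140 (56.4%) and above 0 were 61, while 46.6% of all tested genes were below 0. This difference was not tested.

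Called genes were spread over near and far sites. With the start under 10 kb away, 3 of 76 tested genes were called (3.95%, 0.822 to 11.1%), beside 2.72% of all tested genes. At 10 to 50 kb 5 of 54 were called (9.26%, 3.08 to 20.3%), and beyond 50 kb 2 of 14 (14.3%, 1.78 to 42.8%). A gene with sites in several of these ranges was counted in each. Of the 50 tested genes that also had a KLF1 peak elsewhere, 6 were called, and of the 90 without one, 4. Among the 68 tested genes with no other peak of either factor, 3 were called (4.41%, 0.919 to 12.4%). Among the 37 with a KLF3 promoter peak, 5 were called (13.5%, 4.54 to 28.8%). The difference between these strata was not tested.

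**Figure D4:**
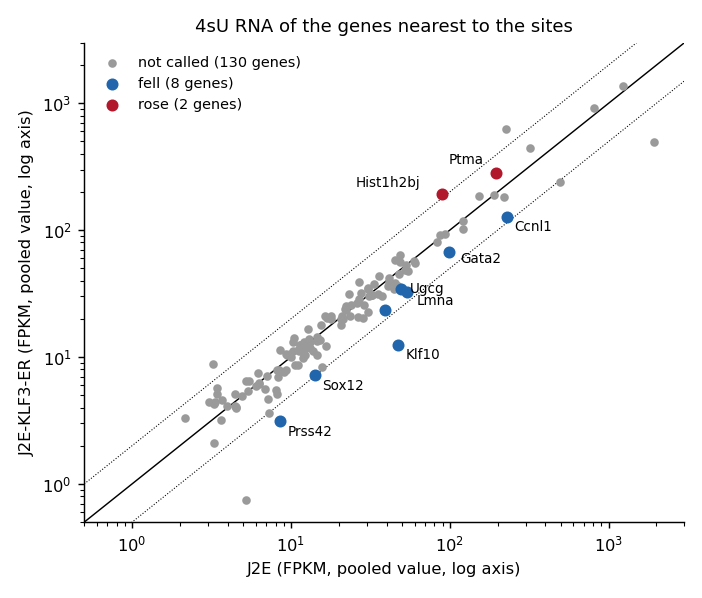
FPKM in J2E (x axis) and in J2E-KLF3-ER (y axis), both logarithmic and each 1 pooled value of 3 libraries, for the 140 tested genes nearest to the sites. The solid line marks equal values and the dotted lines a ratio of 2; no error bar can be drawn, and 1 falling gene has no name beside its point. The 8 falling genes lie below the solid line, with Klf10 (47.2 and 12.5 FPKM) the farthest among them, and Hist1h2bj and Ptma lie above it.

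The falling genes included Klf10, Sox12 and Gata2, which encode transcription factors. Klf10, a TGF-beta-inducible KLF that binds the SIN3 corepressor, had 47.2 FPKM in J2E and 12.5 FPKM with KLF3-ER by the authors' deposited table (log2 fold change -1.92, q = 0.00408). It was the largest fall among the called neighbours. Its site (mm9, chr15:38314404-38314672, intergenic, enrichment 7.68) lay 84.1 kb upstream of the start and was the only KLF3 peak assigned to it. KLF1 had 5 peaks assigned to Klf10, in an intron and up to 73.4 kb upstream, and the nearest of them stood 10.4 kb from the KLF3 site. Sox12, a SOX family factor gene, had 14.2 FPKM in J2E and 7.16 FPKM with KLF3-ER by the authors' deposited table (log2 fold change -0.99, q = 0.00408). Its site lay 8.33 kb upstream (chr2:152232029-152232204), at 6.77 and the smallest listed width, and its promoter had overlapping peaks of KLF3 (10.7) and KLF1 (31.8). Sox12 was not the neighbour of a site when the nearest tested gene was taken by its interval.

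Gata2, the GATA factor of stem and progenitor cells that Gata1 replaces as red cells mature, fell less. It had 99.0 FPKM in J2E and 67.4 FPKM with KLF3-ER by the authors' deposited table (log2 fold change -0.55, q = 0.0231). Its site (chr6:88139630-88139964, enrichment 7.23) lay 8.83 kb upstream of the start. Another 3 distal sites without KLF1 lay farther upstream, at 81.3 kb (4.59), 123 kb (10.7) and 153 kb (8.19), and were assigned to Rpn1 and Rab7, genes of an oligosaccharyltransferase subunit and of a small GTPase. KLF3 also had peaks at the Gata2 promoter (3.94), in an intron (8.24) and in coding sequence (4.16), 7 KLF3 peaks within 200 kb in all. There was no KLF1 peak within 200 kb; the nearest KLF1 summit lay 386 kb away at the promoter of Rab43. Rpn1 had 33.2 FPKM in J2E and 37.3 with KLF3-ER, and Rab7 26.9 FPKM in J2E and 38.9 with KLF3-ER, by the authors' deposited table, and neither passed the test (q = 0.684 and 0.314). The wider Gata2 region was singled out after its values were seen.

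**Figure D5:**
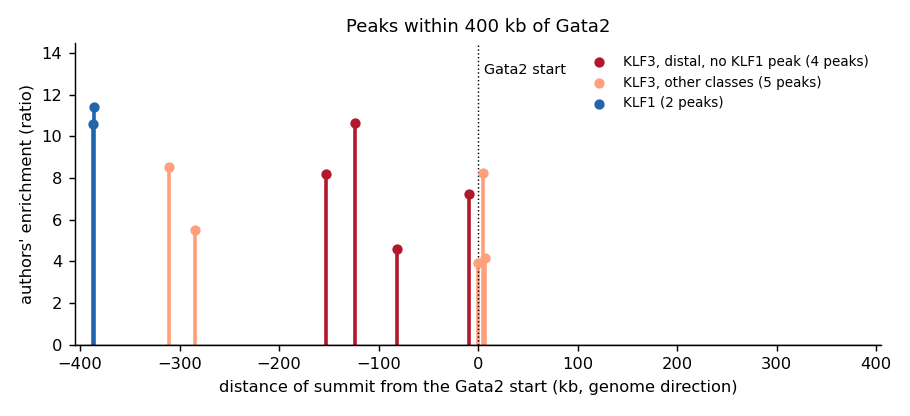
Peaks within 400 kb of the Gata2 start, placed by the distance of the summit from that start (kb, x axis; Gata2 is transcribed to the right) with the authors' enrichment (ratio, y axis), where heights are not comparable between the factors. The 4 distal KLF3 sites without KLF1 (8.83, 81.3, 123 and 153 kb upstream) stand to the left of the start, and the only KLF1 peaks lie more than 386 kb to the left.

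The other falling genes named here had different roles. Ccnl1, the gene of cyclin L1, which acts in pre-mRNA splicing, had 228 FPKM in J2E and 128 FPKM with KLF3-ER by the authors' deposited table (log2 fold change -0.84, q = 0.00408). It had 2 summits in 1 interval (chr3:65778306-65778879), 16.3 and 16.5 kb upstream, with enrichments of 9.67 and 6.05, and overlapping promoter peaks of KLF3 (16.1) and KLF1 (29.7). Lmna had 54.1 FPKM in J2E and 32.4 FPKM with KLF3-ER by the authors' deposited table (log2 fold change -0.74, q = 0.0148). Its site (chr3:88281693-88281931, 16.3) lay 15.4 kb downstream of the nearest start site and 3.24 kb past the 3′ end of the Lmna interval. The body and surroundings of Lmna had 4 other KLF3 and 5 KLF1 peaks. Of these 4 other KLF3 peaks at Lmna, 3 overlapped a KLF1 peak.

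Prss42, a serine protease gene, had 8.55 FPKM in J2E and 3.11 FPKM with KLF3-ER by the authors' deposited table (log2 fold change -1.46, q = 0.0271), with a site 16.8 kb upstream (chr9:110683763-110684051, 5.09). That site was the only peak of either factor assigned to it. Ugcg, the gene of ceramide glucosyltransferase, had 49.3 FPKM in J2E and 34.1 FPKM with KLF3-ER by the authors' deposited table (log2 fold change -0.53, q = 0.0451). Its site was 89.0 kb downstream (chr4:59291340-59291580, 7.60), and a KLF1 peak (7.93) lay 43.8 kb from the same start.

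Of the 2 rising genes, Hist1h2bj, a replication-dependent histone H2B gene, had 89.6 FPKM in J2E and 192 FPKM with KLF3-ER by the authors' deposited table (log2 fold change 1.10, q = 0.00408). Its site (chr13:22142792-22143082, 16.2) lay 7.84 kb downstream and was the only peak of either factor assigned to it. H2B genes are near-identical copies, so reads may have been split among them and the value is uncertain. Ptma, the gene of prothymosin alpha, a chromatin-associated acidic protein, had 194 FPKM in J2E and 281 FPKM with KLF3-ER by the authors' deposited table (log2 fold change 0.53, q = 0.0439). Its KLF3-only site lay 39.0 kb upstream (chr1:88384012-88384537, 11.96), and 22.3 kb upstream stood a distal KLF3 peak (13.2) that overlapped a KLF1 peak (11.9). Its promoter carried KLF3 summits of 5.72 and 4.88 without KLF1.

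Of 204 genes on 11 lists, of erythroid and more general functions, 15 were nearest to a site (7.35%, 4.17 to 11.8%). Over all 23309 genes of the RNA table the share was 0.897%, and over the 9619 tested genes 1.46%. The lists were chosen with earlier results known, so their share was not tested. None of the 8 globin genes, 20 heme and iron genes, 21 red cell membrane genes and 19 cell cycle genes was among them, while distal KLF3 peaks with KLF1 were nearest to 1, 1, 3 and 3 genes of these lists. At the share over all genes, a count of 0 among these 68 genes is near the background. In the erythroid transcription factor list 3 of 24 genes had a KLF3-only distal site, Gata2, Lyl1 and Tcf3, and 1 fell. Lyl1, a helix-loop-helix factor that partners with LMO2, had 92.8 FPKM in J2E and 92.4 FPKM with KLF3-ER by the authors' deposited table (q = 0.993), with its site 3.77 kb downstream. Tcf3, the gene of the E proteins E12 and E47, had 28.6 FPKM in J2E and 25.6 FPKM with KLF3-ER by the authors' deposited table (q = 0.723). In the KLF and SP list 2 of 19 had a site: Klf10, which fell, and Sp1, with 30.8 FPKM in J2E and 30.2 FPKM with KLF3-ER by the authors' deposited table (q = 0.959).

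Chromatin regulators had 4 of 20 genes next to a site, beside the 0.897% of all genes, and 0 of 4 were called. They were Kdm6b, a histone H3K27 demethylase gene (site 3.93 kb upstream), Hdac4, a histone deacetylase gene (32.1 kb upstream, enrichment 11.7), Chd7, a remodeller gene (43.3 kb upstream), and Arid1a, a SWI/SNF subunit gene with 2 sites 60.2 and 60.6 kb upstream. By the authors' deposited table their log2 fold changes ran from -0.08 for Chd7 to 0.12 for Hdac4. The sites of Kdm6b (245 bp), Arid1a (354 and 752 bp) and Chd7 (963 bp) all lay within 1 kb of a KLF1 peak. Only the Hdac4 site was far from one, at 293 kb. Cytokine signalling had 3 of 22, the feedback inhibitor genes Socs3, Spred2 and Dusp6. Dusp6, a phosphatase gene acting on ERK, had 16.3 FPKM in J2E and 21.2 FPKM with KLF3-ER by the authors' deposited table (q = 0.332), Spred2 was not called (q = 0.777) and Socs3 was not tested. The CtBP complex list had 1 of 12, Rcor1 (32.2 FPKM in J2E and 31.0 FPKM with KLF3-ER by the authors' deposited table, q = 0.923). Survival and death genes had 1 of 18, Birc2 (12.1 FPKM in J2E and 10.4 FPKM with KLF3-ER by the authors' deposited table, q = 0.665). The adhesion and cytoskeleton list had 1 of 23, Lmna, which fell.

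The Klf1 and Klf3 genes had no distal site. Klf1 had KLF3 peaks in coding sequence (26.6 and 14.2), and Klf3 had a promoter peak (6.86) and an intron peak (6.71), none of them overlapping KLF1. Klf3 RNA, which includes the transgene's, had 7.46 FPKM in J2E and 180 FPKM with KLF3-ER by the authors' deposited table, and Klf1 had 122 FPKM in J2E and 55.6 with KLF3-ER (q = 0.00408 for both).

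The erythroid label was checked with 9 marker genes of the RNA table (the planned Hbb-b1 was not among them), and 9 of 9 were at 1 FPKM or more in both groups. Their summed level was 582 FPKM in J2E and 413 FPKM with KLF3-ER by the authors' deposited table, with Klf1, Epor and Slc4a1 called lower. The other erythroid markers were not called. Among them Alas2 alone was higher with KLF3-ER (6.21 FPKM in J2E and 9.28), and Tfrc was nearly level (102 FPKM in J2E and 101). With J2E given first and KLF3-ER second, mast cell markers summed to 1.96 and 1.398 FPKM, lymphoid markers to 1.05 and 0.812 FPKM and myeloid markers to 28.9 and 22.6 FPKM by the authors' deposited table. The 4 megakaryocyte markers summed to 157 FPKM in J2E and 176 FPKM with KLF3-ER by the authors' deposited table, nearly all of it Pf4 and Itga2b. At 1 FPKM or more in both groups stood 3 of these 4, 3 of 4 myeloid, 1 of 4 mast and 0 of 4 lymphoid markers. That threshold alone does not set erythroid cells apart. The part of the lower RNA of some erythroid markers in the falling neighbours was not tested.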

How the data were processed

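The members and the gene lists were chosen with earlier results of these data known. The submitters' processing notes name mm9, TopHat2 2.0.10, MACS2 and MACS 1.4.2; which tool made which file is not given in the sources used here. Each deposited peak list holds an enrichment ratio for every peak, made by the authors from 1 pooled immunoprecipitate per factor. Per the file headers, the deposited RNA table holds FPKM pooled to 1 value per group, a log2 fold change of J2E-KLF3-ER over J2E, a p-value and q-value, and a test score. It holds no per-sample values, so the authors' q was used. Depth per library is unknown, and 0 per-sample columns were left unused. No label tells whether the J2E libraries came from separate cultures, so the spread between the first and second may be technical. The third J2E library differed in treatment, and the J2E-KLF3-ER libraries came from different clones. The p-values cover only the spread among these libraries.

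Overlap meant at least 1 bp, and genes were assigned as the authors did. Distances run from summit to start site, gaps between interval edges; coordinates are as listed. Shares carry 95% exact (Clopper-Pearson) intervals and medians order-statistic intervals, which cover counting error only. Named genes were the 12 tallest and 3 lowest sites, all called neighbours, genes with 3 or more sites, the 3 nearest to and 3 farthest from a start, members of the lists (up to 4 each), the 3 sites on each side of the rule's edge, and Klf1 and Klf3. The values of 1 called gene under this rule are not reported here; it stays in the counts. The planned motif search in the sites was not run without an mm9 genome; promoters were searched in its place. The overlap, gap and interval functions were tested on simulated data. Python 3.11.15, pandas 2.3.3, NumPy 2.4.6, SciPy 1.17.1 and matplotlib 3.10.9 were used.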

Additional observations from a re-analysis of the deposited data

How the results depend on the processing

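Of 27 alternatives, 20 stayed within the error of the value or within 1.5 times the count, 7 moved and 0 reversed. Counting a KLF1 peak within 500 bp or within 5 kb as binding left 223 and 199 sites, and counting each interval once left 226. The share of distal KLF3 peaks without KLF1 was 45.3% with KLF1 within 5 kb counted, 42.9% among KLF3 peaks at or above the median enrichment of their list, and 67.7% when only KLF1 peaks at or above the median of theirs counted. The count of called nearest genes was 4 for the sites at or above the median enrichment (2 fell and 2 rose of 50 tested), 4 for genes without a non-distal peak of either factor (3 fell and 1 rose of 78), 5 at a q below 0.01 (4 fell, 1 rose) and 32 at an unadjusted p below 0.05 (19 fell, 13 rose), which over all tested genes held for 15.4% against 22.9% here. The smaller counts come with fewer genes or a stricter threshold. At a q below 0.01 the share over all tested genes was not computed, so the count of 5 has no background beside it. Taking the nearest tested gene by its interval gave 12 called of 207 tested, 8 of them among the 10 above; Sox12 and Ugcg were lost, and Cdkn1b, Midn, Prss33 and Rpl3 were added. The median log2 fold change of the neighbours ran from -0.05 to -0.01 over its alternatives.

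No paired analysis was possible because the RNA table holds 1 pooled value per group and each peak list 1 pooled library. No replicate was left out for the same reason. The motif alternatives for windows of the sites were not run, since no mm9 genome was used. Depth is unknown, so a KLF1 peak below the authors' threshold was not detectable here, and a site without a listed KLF1 peak is not shown to lack KLF1.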

Other observations

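The KLF1 peak list names genes as up in a comparison of K1 and K1-ER cells, 557 in all; its header does not say up in which of the lines, and only genes near a listed peak can appear. Of the 209 genes nearest to distal KLF3 sites without KLF1, 15 were among them (7.18%, 95% exact interval 4.07 to 11.6%), beside 34 of 471 genes (7.22%) nearest to intron KLF3 peaks without KLF1 and 83 of 2028 (4.09%) nearest to promoter KLF3 peaks without KLF1. Among the 9619 genes tested in RNA, 400 were named as up (4.16%, 3.77 to 4.58%). The 209 genes include 69 that were not tested, so these shares have unlike denominators. Of the 140 tested neighbours, 14 were named as up, and no interval was computed for that share. Named as down were 2 of the 209 genes (0.957%), beside 0.956% of the genes tested in RNA, again with unlike denominators. These differences were not tested. Klf10, Lmna and Ptma, called in the RNA comparison, were among the 15. Genes nearest to distal KLF3 peaks with KLF1 gave 26.9%; these have a KLF1 peak nearby by definition, so the shares are not comparable. Of the 14 tested among the 15, 9 had a log2 fold change below 0 in the authors' deposited table. Of all 9619 tested genes, 46.6% were below 0, and 14 genes are too few to set against that share.

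The genes of this paragraph were named after their values were seen. The neighbours added when the nearest tested gene is taken by its interval include Cdkn1b, the gene of the cyclin-dependent kinase inhibitor p27, with 11.3 FPKM in J2E and 4.96 FPKM with KLF3-ER by the authors' deposited table (log2 fold change -1.19, q = 0.00707). By the authors' deposited table Midn had 31.8 and 16.2 FPKM (log2 fold change -0.97) and Prss33 9.55 and 3.36 FPKM (log2 fold change -1.51) in J2E and with KLF3-ER. Rpl3, a ribosomal protein gene, rose, with 230 FPKM in J2E and 340 FPKM with KLF3-ER by the authors' deposited table (log2 fold change 0.56, q = 0.00995).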
